A study of Mus musculus with 55 samples.

Results

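The subcortical maternal complex is a set of proteins that oocytes store beneath their surface for the early embryo, and 8 of its genes were followed here among the 51734 genes counted: Nlrp5, Ooep, Tle6, Khdc3, Padi6, Zbed3, Nlrp2 and Nlrp4f. They were chosen by name, with earlier results of these data known, and all 8 were listed in the files and passed the filter on low counts. The study asked what the histone-binding ADD domains of the de novo DNA methyltransferase DNMT3A and of its cofactor DNMT3L do in mouse germ cells. RNA-seq libraries were each made from 1 fully grown oocyte (FGO) or 1 MII oocyte, the mature egg that follows the FGO. There were 18 wild-type FGOs, 8 FGOs of genotype Dnmt3a+/+Dnmt3LD124A/D124A (the Dnmt3L mutant), 8 of genotype Dnmt3aADA/ADADnmt3L+/+ (the Dnmt3a mutant) and 8 with both Dnmt3aADA/ADA and Dnmt3LD124A/D124A (the double mutant), all from females of 10 to 12 weeks, and 10 wild-type MII oocytes whose age the labels do not give. For in vitro fertilisation, the paper describes MII oocytes from females injected with inhibin antiserum and human chorionic gonadotropin. It describes no such injection for FGOs. Whether the MII oocytes sequenced here were obtained in that way is not stated, and any part of it in their differences was not tested. The mutations are substitutions carried in every cell of the mouse, so that oocytes and the follicle cells around them share them, and the mutant lines were backcrossed to an inbred strain. How many females gave the oocytes of a group is not stated, so p-values measure only the spread between oocytes.

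The complex forms in the growing oocyte, is kept through maturation and fertilisation, and is needed for normal cleavage of the embryo. NLRP5 (also called MATER), OOEP (FLOPED) and TLE6 make up its core, and KHDC3 (FILIA) binds to that core. PADI6 is required for the cytoplasmic lattices in which oocytes store protein, ZBED3 acts in spindle positioning at the first cleavage, and NLRP2 and NLRP4F are relatives of NLRP5 that take part in the complex.

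Total counts ran from 7832458 to 23739871 per library, and no member had fewer than 158 counts in any of the 52 libraries. The libraries were divided here by the share of reads mapped, taken from the study's read numbers. The boundary of 80% was set for this report, with under 80% called the low and at least 80% the high class. The low class held 8 of 18 wild-type FGOs, 0 of 8 Dnmt3L mutants, 3 of 8 Dnmt3a mutants, 8 of 8 double mutants and 3 of 10 MII oocytes. The Dnmt3L and double mutants thus lay wholly in different classes, and for these groups class and genotype cannot be told apart. Among wild-type FGOs the low class was replicates 1 to 8 and the high class replicates 9 to 18. There class and replicate number cannot be told apart. All 12 oocyte markers were present in every group. The 12 granulosa markers summed to 112 to 284 CPM (counts scaled by TMM to a common library total) in wild-type FGOs. The sum was 112 to 166 in Dnmt3L mutants, 112 to 211 in Dnmt3a mutants, 107 to 142 in double mutants and 104 to 125 in MII oocytes. A mean of at least 1 CPM was reached by 10 of the 12 in wild-type FGOs, Dnmt3L mutants and Dnmt3a mutants. Only 4 reached it in double mutants, and 4 in MII oocytes. CPM are shares of the RNA in a library, so less of a transcript and more of all the others cannot be told apart.

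DNMT3A, with its catalytically inactive cofactor DNMT3L, methylates both CpG and non-CpG sites. The 250 bases upstream of 4 members are shown with each CpG in capitals, and their methylation was not examined here. RefSeq sequences (GRCm38.p6, the mm10 assembly) were found for all 8 members, in 12 windows. The 4 shown lie wholly outside the annotated gene. Nlrp5 and Padi6 were the pair that varied most closely together, and Nlrp2 and Zbed3 fell and rose in MII oocytes.
Nlrp5 (chr7:23385639-23385888, + strand): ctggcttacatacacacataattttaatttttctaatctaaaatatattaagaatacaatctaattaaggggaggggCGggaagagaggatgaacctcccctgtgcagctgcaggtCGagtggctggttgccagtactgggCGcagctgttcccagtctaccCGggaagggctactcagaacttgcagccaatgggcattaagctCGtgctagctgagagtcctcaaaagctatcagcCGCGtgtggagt
Padi6 (chr4:140742644-140742893, - strand): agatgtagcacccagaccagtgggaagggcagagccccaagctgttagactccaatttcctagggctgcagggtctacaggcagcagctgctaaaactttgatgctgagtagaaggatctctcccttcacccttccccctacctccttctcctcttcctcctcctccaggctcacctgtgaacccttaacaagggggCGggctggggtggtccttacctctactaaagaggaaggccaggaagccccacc
Nlrp2 (chr7:5351036-5351285, - strand): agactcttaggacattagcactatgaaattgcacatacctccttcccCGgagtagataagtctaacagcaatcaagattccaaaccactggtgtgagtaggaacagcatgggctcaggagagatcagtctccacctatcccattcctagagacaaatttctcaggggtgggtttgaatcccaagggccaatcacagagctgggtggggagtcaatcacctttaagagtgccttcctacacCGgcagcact
Zbed3 (chr13:95323355-95323604, + strand): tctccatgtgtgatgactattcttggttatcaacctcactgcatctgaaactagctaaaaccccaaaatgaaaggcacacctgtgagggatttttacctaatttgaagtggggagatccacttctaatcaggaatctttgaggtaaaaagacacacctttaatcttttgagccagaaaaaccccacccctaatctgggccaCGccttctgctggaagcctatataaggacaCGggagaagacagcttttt

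These windows hold 7, 1, 2 and 2 CpGs, against a median of 6 over 32851 RefSeq promoter windows of the same length. Over the 12 windows of the 8 members the number ran from 0 at Khdc3 to 17 at 1 of the start sites of Tle6. Tle6, Nlrp5 and Zbed3 each had start sites of unlike CpG number, 1 and 17 for Tle6, 7 and 1 for Nlrp5, and 2, 13 and 5 for Zbed3. The motif CANNTG, the core bound by basic helix-loop-helix factors, was found on either strand in 11 of the 12 windows and in 66.2% of all promoters. CCAAT was found in 7 of the 12 and in 33.8% of all, TATAAA in 2 and in 12.4%, and TAATTG in 1 and in 7.17%. Such matches are a description of these letters only.

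In wild-type FGOs the 8 genes together took 1.06% of all counts, with Zbed3 the highest and Khdc3 the lowest. Zbed3 (chr13:95323612-95337841) reached 1718 ± 203 CPM per kilobase of exons (SD, n = 18), rank 2 of 15784 genes tested. Padi6 (chr4:140727355-140742643) stood at 797 ± 90.3 CPM per kilobase, rank 9. Tle6 (chr10:81590904-81601073) followed with 417 ± 21.8 CPM per kilobase, rank 42. These 3 did not overlap one another in range.

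The 3 other genes over 200 CPM per kilobase lay closer together. Nlrp4f (chr13:65177111-65205977) had 352 ± 28.9 CPM per kilobase, Nlrp5 (chr7:23385889-23441922) 247 ± 38.7 and Ooep (chr9:78376109-78378725) 221 ± 26.5. Their order was not kept in every oocyte. Tle6 was above Nlrp4f in 15 of 18 oocytes, Nlrp4f above Nlrp5 in 17 and Nlrp5 above Ooep in 13, and the ranges of each of these pairs overlapped. Nlrp2 (chr7:5298547-5351035) had 116 ± 10.2 CPM per kilobase, below Ooep in all 18. Khdc3 (chr9:73101836-73104438) had 22.3 ± 7.81, rank 2638, below Nlrp2 in all 18.

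**Figure D1:**
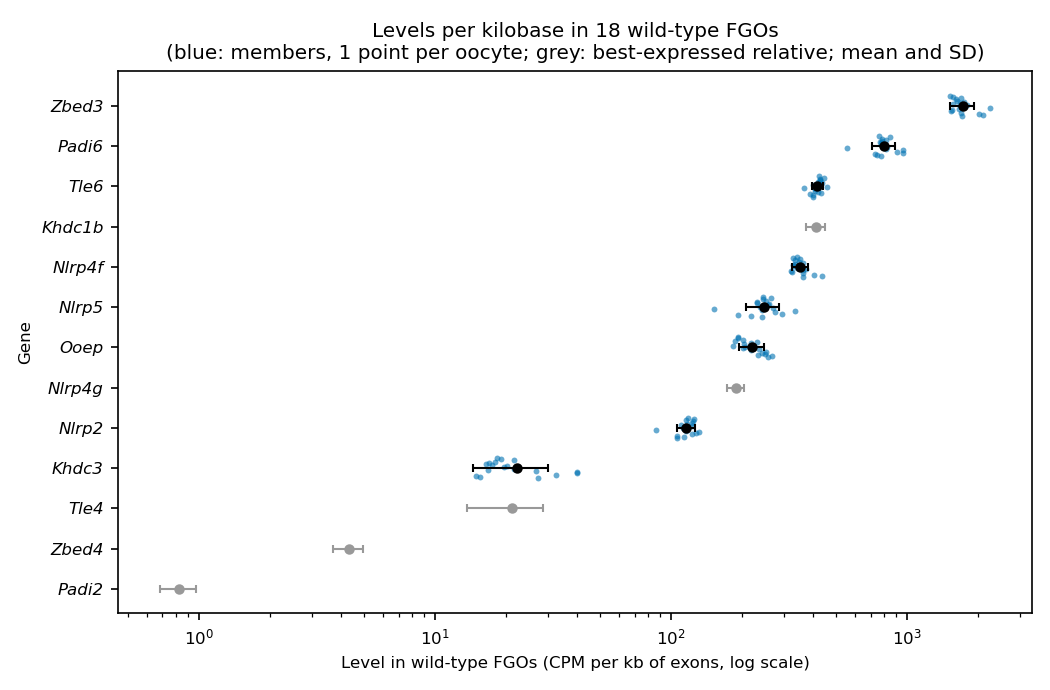
Level in wild-type FGOs (x axis, CPM per kilobase of exons, log scale) of the 8 members (blue, 1 point per oocyte of 18) and of the best-expressed relative of 5 of their families (grey), with mean and SD. Zbed3 lies highest at 1718 and Khdc3 at 22.3, while Padi2 and Zbed4 lie at 0.824 and 4.32.

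The level of Khdc3 has a limit of its own. A second annotated gene, Gm20509, lies on the same strand and shares 790 of the 2050 exon bases of Khdc3, and it had 0 counts in all 52 libraries. How reads on shared bases were counted is not given in the sources used here. Over the 1260 unshared bases alone the level would be 36.3 CPM per kilobase, still below the other 7. Differences of Khdc3 between groups do not depend on this length. Of the other members, 6.55% of the 50-base stretches of Nlrp5 occur in another gene's transcripts, mostly in the pseudogene Nlrp5-ps, 5.95% of those of Nlrp4f and at most 2.39% of those of Nlrp2, Ooep, Tle6, Padi6 and Zbed3. Reads from such stretches are uncertain.

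Members differed from their relatives in level. Padi2, the highest of the other peptidylarginine deiminases, had 0.824 ± 0.143 CPM per kilobase, and Zbed4 had 4.32 ± 0.635. Tle4, the highest of the other TLE co-repressors, had 21.1 ± 7.45, against 417 for Tle6. Khdc1b was above Khdc3, at 411 ± 37.8 CPM per kilobase. Nlrp4g, a neighbour of Nlrp4f in sequence, had 188 ± 15.6.

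Wild-type FGOs differed from one another in some members far more than in others. Between 18 oocytes the coefficient of variation (CV) was 5.23% for Tle6, which had a lower CV than all but 1.75% of the 2521 genes of at least 100 CPM, whose median was 11.3%. Tle6 lay between 1130 and 1409 CPM, with a median of 1298. The CV was 8.20% for Nlrp4f and 8.81% for Nlrp2. It was 11.3% for Padi6, 11.8% for Zbed3 and 12.0% for Ooep, close to the median gene. Nlrp5 varied more, with a CV of 15.7% and values from 739 to 1618 CPM. Khdc3 varied most, with a CV of 35.0% and values from 30.5 to 81.7 CPM, at a level where counting alone gives 3.76%.

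The spread went with the class of mapped reads. For Nlrp5 the CV was 23.8% in the 8 low-class oocytes and 5.52% in the 10 high-class oocytes, at like means of 1184 and 1207 CPM. For Padi6 it was 17% and 3.38%, for Khdc3 38.6% and 9.60%, for Zbed3 14.9% and 5.29%, for Nlrp2 12.6% and 4.50%, and for Nlrp4f 10.2% and 3.24%. Ooep was the exception, at 6.33% and 7.39% around unlike means of 523 and 431 CPM. Wild-type replicates 6 and 8, both of the low class, held the highest and the lowest value of Nlrp5, Padi6 and Nlrp2. In these oocytes class and replicate number cannot be told apart, and the part of either in these spreads was not tested.

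**Figure D2:**
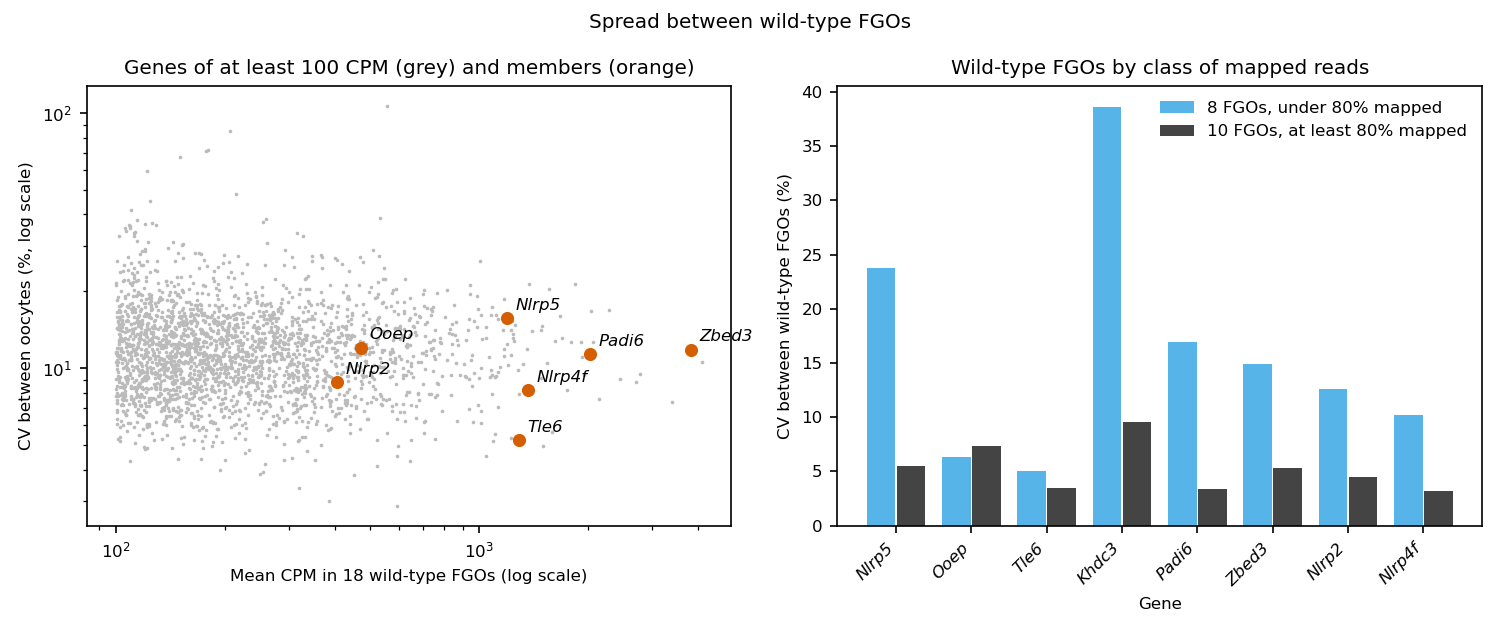
Left, CV between 18 wild-type FGOs (y axis, %, log scale) against mean level (x axis, CPM, log scale) for 2521 genes of at least 100 CPM (grey) and the 7 members above that level (orange); Tle6 lies at 5.23% and Nlrp5 at 15.7%. Right, CV of each member in the 8 low-class and the 10 high-class wild-type FGOs as bars from 0, where Nlrp5 stands at 23.8% and 5.52%.

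The members did not vary as 1 unit. Over 42 FGOs, as deviations from the mean of genotype and class, the 28 pairs had correlations of log2 CPM from -0.66 to 0.90 with a median of 0.25, against a median of 0.20 over all pairs of genes of at least 100 CPM. Nlrp5, Padi6, Nlrp2 and Khdc3 varied together. Nlrp5 and Padi6 had r = 0.90, Nlrp5 and Nlrp2 0.79, Nlrp5 and Khdc3 0.76, and Padi6 and Nlrp2 0.74. Zbed3 and Nlrp4f varied with one another (r = 0.81) and in the opposite direction to Khdc3 (-0.59 and -0.66). Ooep and Tle6 had r = 0.55. Wild-type replicate 8 showed both sides, with the lowest Nlrp5 (739 CPM), Padi6 (1406) and Nlrp2 (303) and the highest Zbed3 (5024). For Nlrp5 the CV was 23.8% in the 8 low-class wild-type FGOs and 5.52% to 10.7% in every other genotype and class. Oocytes of wider spread weigh more in these correlations, and correlations within single groups were not computed. The correlations share libraries and scaling and are given as a description.

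**Figure D3:**
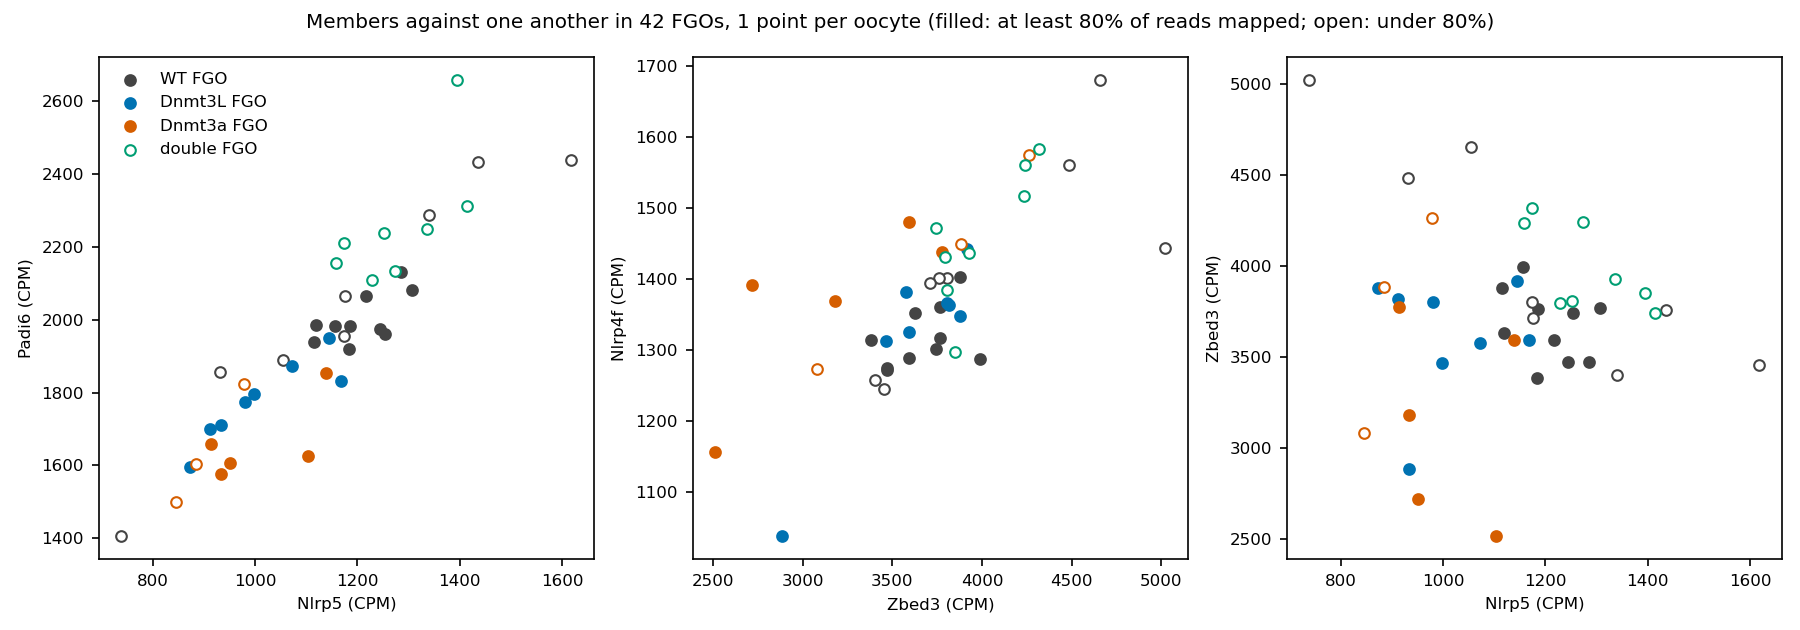
Each point is 1 of 42 FGOs, coloured by genotype, open for the low and filled for the high class of mapped reads, with CPM on both axes. Shown are Nlrp5 and Padi6 (left), Zbed3 and Nlrp4f (middle) and Nlrp5 and Zbed3 (right). As deviations of log2 CPM from the mean of genotype and class, these pairs had r = 0.90, 0.81 and -0.45. These r are not of the CPM as plotted, where differences between genotypes and classes remain.

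In Dnmt3a mutant FGOs, 3 of the 8 members fell and 0 rose at an adjusted p under 0.05 (edgeR quasi-likelihood test, Benjamini-Hochberg over 15726 genes), where 7.61% of all genes tested fell and 8.06% rose. None changed over 2-fold, as 2.05% of all genes did, and for none were the ranges of both groups apart, as for 0.31% of all genes. The genes that fell were Nlrp5, Padi6 and Khdc3. The median log2 difference of the 8 was -0.18, against -0.03 over all genes, and 7 of the 8 were negative.

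Nlrp5, the scaffold of the core, had 739, 1185 and 1618 CPM as lowest, median and highest of the wild-type FGOs, and 845, 942 and 1139 in the Dnmt3a mutant. All 8 mutant oocytes lay below the wild-type median, and none lay below the wild-type range. The fitted level fell by 19.0% (log2 -0.30 ± 0.08 SE, adjusted p = 0.00657). With high-class libraries alone the log2 difference was -0.26 (adjusted p = 0.00687), and with low-class libraries alone it was -0.39 (adjusted p = 0.249, 3 against 8 oocytes).

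Padi6, the peptidylarginine deiminase of the lattices, had 1406, 1983 and 2439 CPM in wild-type FGOs and 1500, 1616 and 1853 in the Dnmt3a mutant. Again all 8 lay below the wild-type median and within the wild-type range. It fell by 17.9% (log2 -0.28 ± 0.06 SE, adjusted p = 0.000753). Within the high class all 5 mutants lay below all 10 wild-type oocytes (log2 -0.26, adjusted p = 0.000363). Within the low class the difference was -0.31 (adjusted p = 0.24).

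Khdc3, the RNA-binding partner of the core, had 30.5, 39.4 and 81.7 CPM in wild-type FGOs and 24.2, 29.1 and 47.7 in the Dnmt3a mutant, where 5 of 8 oocytes lay below the wild-type range. It fell by 30.1% (log2 -0.52 ± 0.16 SE, adjusted p = 0.0271). The call was lost with 1 class alone (log2 -0.23 with adjusted p = 0.281 in the high class, -0.83 with adjusted p = 0.157 in the low class). It was also lost without Dnmt3a mutant replicate 2, 3, 5 or 6, where the adjusted p reached 0.0673 at most.

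The other members moved less. Ooep had 389, 465 and 569 CPM in wild-type FGOs and 341, 414 and 522 in the Dnmt3a mutant (log2 -0.17 ± 0.06 SE, adjusted p = 0.0619), and it was called in 10 of 26 fits that left out 1 library. Zbed3 had 3384, 3751 and 5024 CPM in wild-type FGOs and 2513, 3386 and 4262 in the Dnmt3a mutant, with 4 of 8 mutants below the wild-type range (log2 -0.18 ± 0.07 SE, adjusted p = 0.0777), and it was called without Dnmt3a mutant replicate 1 or 2. Tle6 had a log2 difference of -0.06 over all libraries, with an interval from -9.15% to 1.44%, and was called lower within the high class (-0.15, adjusted p = 0.0215). Nlrp2 (-0.10) and Nlrp4f (0.03) were not called, with intervals from -12.9% to 0.649% and from -5.08% to 9.91%.

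**Figure D4:**
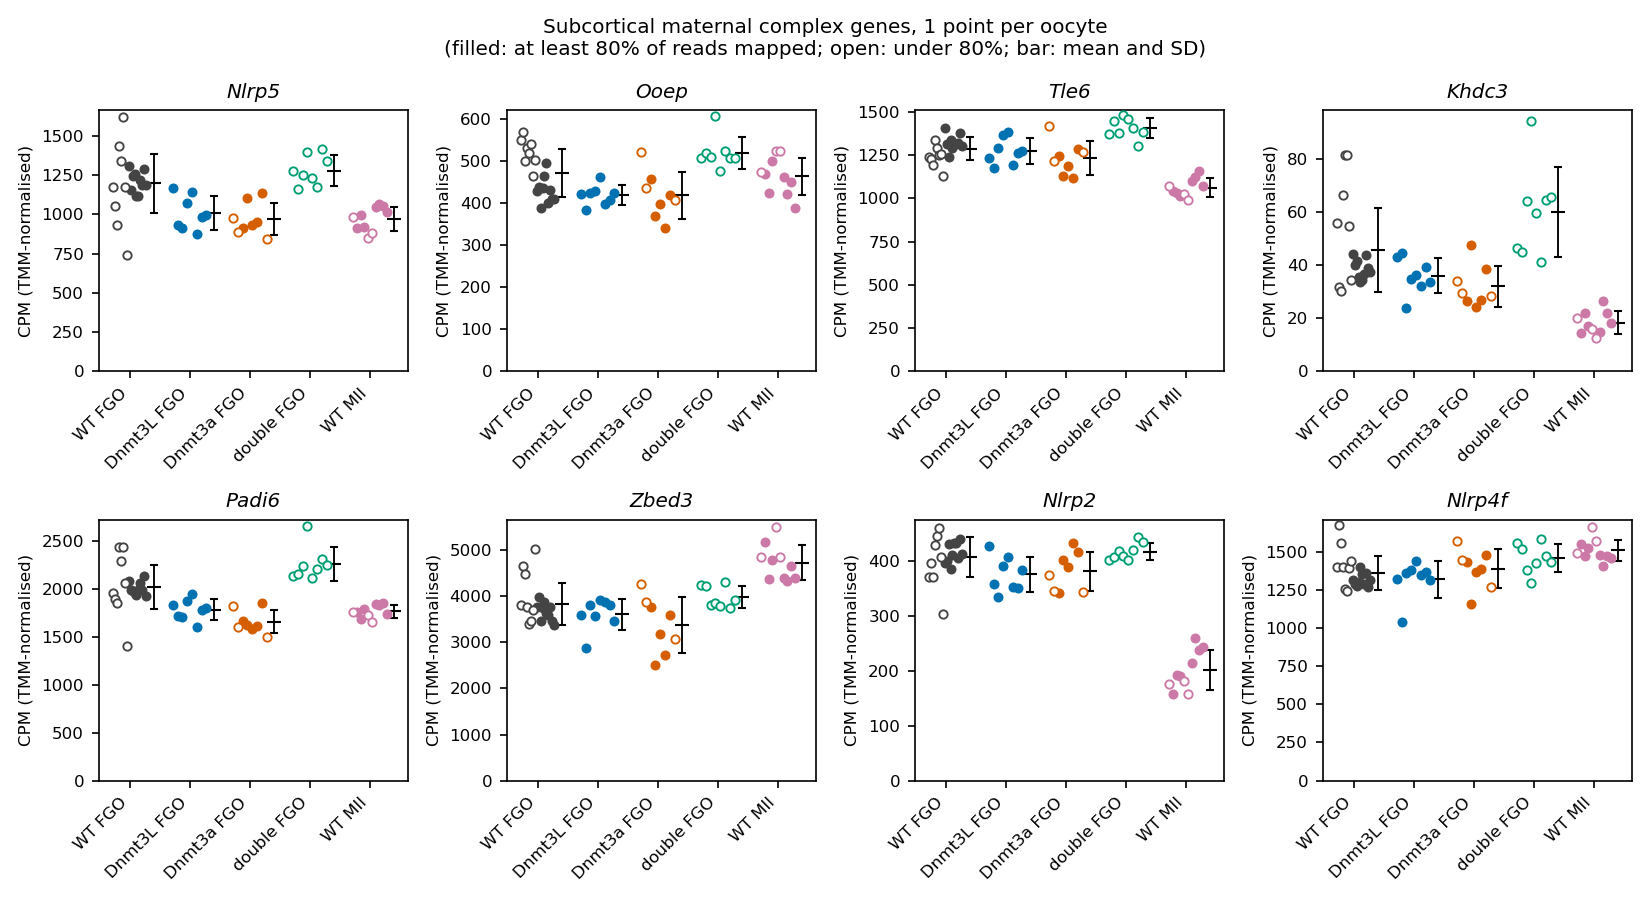
CPM of each member (y axes, from 0) in every oocyte of the 5 groups (x axes), open for the low and filled for the high class of mapped reads, with mean and SD beside each group. Nlrp5 and Padi6 of all 8 Dnmt3a mutant FGOs lie below the wild-type medians of 1185 and 1983, and Khdc3 and Nlrp2 of MII oocytes lie below every wild-type FGO.

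In Dnmt3L mutant FGOs, 2 of the 8 members fell and 0 rose, where 3.06% of all genes tested fell and 3.07% rose. None changed over 2-fold (0.655% of all genes) or had ranges apart (0.0887%). The 2 genes were Nlrp5 and Padi6, and all 8 log2 differences were negative with a median of -0.14, against -0.03 over all genes. The Dnmt3L and Dnmt3a comparisons share the 18 wild-type FGOs. Nlrp5 had 874, 989 and 1168 CPM in the Dnmt3L mutant, all 8 below the wild-type median, and fell by 15.6% (log2 -0.25 ± 0.08 SE, adjusted p = 0.0497). Padi6 had 1597, 1785 and 1950 CPM, again all 8 below the wild-type median, and fell by 11.9% (log2 -0.18 ± 0.06 SE, adjusted p = 0.0473). Against the 10 high-class wild-type FGOs, 6 of 8 mutants were below the range for Nlrp5 and 7 of 8 for Padi6 (log2 -0.25 with adjusted p = 0.00447, and -0.17 with adjusted p = 0.0147).

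Both calls lay at the threshold, and with the class as a covariate Padi6 was not called (adjusted p = 0.0939). Against the 8 low-class wild-type FGOs neither was called (adjusted p = 0.101 for Nlrp5 and 0.057 for Padi6), while Ooep and Khdc3 were (log2 -0.32 with adjusted p = 0.000616, and -0.60 with adjusted p = 0.0253). Leaving out 1 library at a time left 0 calls in 15 of 26 fits, 1 in 5 and 2 in 6. The 6 that kept both were without wild-type replicate 2, 3, 8 or 13 or Dnmt3L mutant replicate 1 or 5. Of the others, Ooep had 384, 423 and 462 CPM (log2 -0.17 ± 0.06 SE, adjusted p = 0.0976), and this difference was -0.04 within the high class. Khdc3 had 24.1, 35.6 and 44.8 CPM (log2 -0.35, adjusted p = 0.196), and -0.10 within the class. Tle6, Zbed3, Nlrp2 and Nlrp4f had log2 differences from -0.12 to -0.02 and were not called.

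In double mutant FGOs no member fell, where 6.74% of all genes tested did. Tle6 alone rose (1 of 8), where 5.51% rose. None changed over 2-fold (1.65% of all genes) or had ranges apart (0.184%). All 8 log2 differences were positive with a median of 0.11, against -0.01 over all genes. Tle6 had 1304, 1396 and 1484 CPM against 1130, 1298 and 1409 in wild-type FGOs, with 4 of 8 above the wild-type range, and it rose by 8.60% (log2 0.12 ± 0.04 SE, adjusted p = 0.0396). Against the 8 low-class wild-type FGOs, 7 of 8 double mutants lay above the range (log2 0.18, adjusted p = 0.0443). The call was lost with the class as a covariate (adjusted p = 0.0899), and without wild-type replicate 3, 8 or 11 or double mutant replicate 2, 4, 5 or 8, with an adjusted p of at most 0.0755.

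Nlrp5 had 1158, 1263 and 1414 CPM in the double mutant (log2 0.09 ± 0.08 SE, adjusted p = 0.463) and Padi6 2107, 2224 and 2658 (log2 0.15 ± 0.06 SE, adjusted p = 0.0663). Ooep had 477, 509 and 608 CPM, all 8 above the wild-type median, but the difference of 0.13 over all wild-type FGOs was -0.011 against those of the low class. Khdc3 had 41.2, 61.9 and 94.4 CPM, again all 8 above the wild-type median (log2 0.39 ± 0.16 SE, adjusted p = 0.0932), and 0.13 within the class. Padi6 was called without wild-type replicate 4, 5 or 6, and Khdc3 without wild-type replicate 5 or 6. Zbed3, Nlrp2 and Nlrp4f had log2 differences of 0.05, 0.03 and 0.09.

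The difference of the double mutant from wild type was next set against the sum of the differences of the other 2 mutants. All double mutants were of the low and all Dnmt3L mutants of the high class. The part of the class in this contrast thus cannot be told apart from that of genotype. In the contrast of the 4 genotypes (double mutant minus both other mutants plus wild type, on the log2 scale), 7 of the 8 members were higher and 0 lower, where 19.3% of all genes tested were higher and 16.3% lower. The difference was 1.25 ± 0.25 SE for Khdc3 (adjusted p = 0.000211), 0.64 ± 0.12 for Nlrp5 (adjusted p = 9.75e-05), 0.62 ± 0.09 for Padi6 (adjusted p = 1.94e-06) and 0.47 ± 0.10 for Ooep (adjusted p = 0.000292). It was smaller for Zbed3 (0.32, adjusted p = 0.0234), Nlrp2 (0.24, adjusted p = 0.0178) and Tle6 (0.19, adjusted p = 0.0117). Nlrp4f was at 0.11 ± 0.08 SE (adjusted p = 0.323), with an interval from -0.06 to 0.27. Khdc3 alone passed 2-fold, as 8.8% of all genes did in that direction. With the class as a covariate 5 of the 7 were still called, and Ooep (0.20, adjusted p = 0.121) and Zbed3 (0.14, adjusted p = 0.469) were not.

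Set directly against the Dnmt3a mutant, a comparison added after the values were seen, the double mutant had 6 of 8 members higher and 0 lower, where 16% of all genes tested were higher and 14.9% lower. Padi6 was 1500 to 1853 CPM in the Dnmt3a mutant and 2107 to 2658 in the double mutant, without overlap (log2 0.44 ± 0.07 SE, adjusted p = 2.28e-05). Nlrp5 was 845 to 1139 and 1158 to 1414 CPM, also without overlap (log2 0.39 ± 0.09 SE, adjusted p = 0.0014). These were the 2 of 8 members whose ranges did not overlap, as in 5.64% of all genes. Khdc3 differed by 0.90, Ooep by 0.30, Zbed3 by 0.23 and Tle6 by 0.18, and Nlrp2 (0.12) and Nlrp4f (0.06) were not called. Zbed3 lost its call without Dnmt3a mutant replicate 4, 6 or 8, with an adjusted p of at most 0.06, and Nlrp2 was called without replicate 6. With the class as a covariate Ooep and Zbed3 were not called. With low-class libraries alone (8 against 3 oocytes) Nlrp5, Padi6, Khdc3 and Nlrp2 were called, at log2 0.51, 0.46, 0.98 and 0.24.

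Against the Dnmt3L mutant, also added later, 5 of 8 members were higher and 0 lower, where 12.8% of all genes tested were higher and 11.4% lower. Padi6 differed by 0.34 and Ooep by 0.30 without overlap of their ranges, as in 3.42% of all genes. Khdc3 differed by 0.73, Nlrp5 by 0.33 and Tle6 by 0.13, the last not called without Dnmt3L mutant replicate 6. Nlrp2 (0.14) was called without Dnmt3L mutant replicate 1. With the class as a covariate 1 of the 5, Padi6, was still called (log2 0.33, adjusted p = 0.0466).

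**Figure D5:**
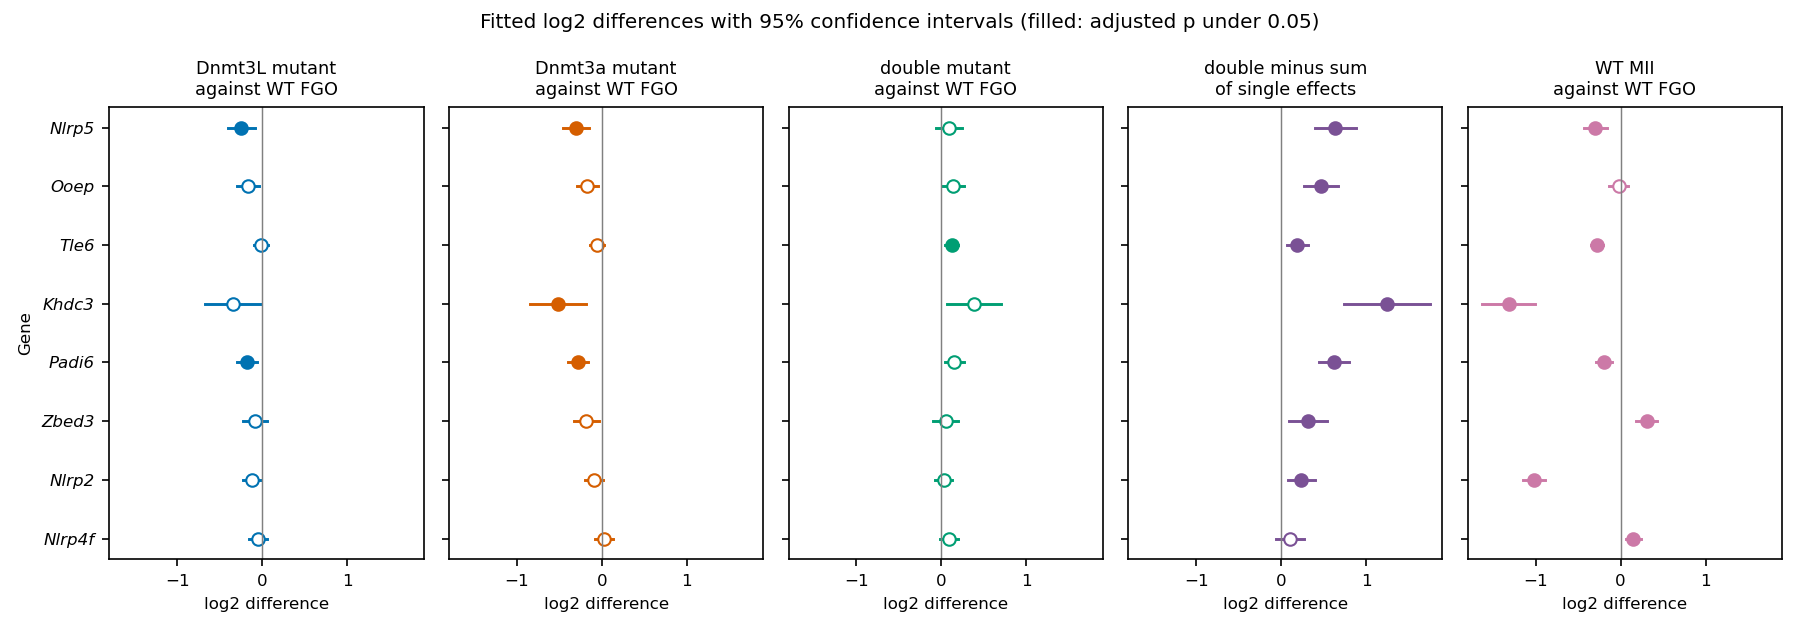
Fitted log2 difference (x axes) with 95% confidence interval for each member (y axis) in 5 comparisons, filled where the adjusted p was under 0.05. Nlrp5 and Padi6 are left of 0 in the Dnmt3L and Dnmt3a mutants and right of 0 in the contrast of both mutations (0.64 and 0.62), and Khdc3 (-1.32) and Nlrp2 (-1.02) are farthest left in MII oocytes.

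MII oocytes differed from wild-type FGOs in 7 of the 8 members, with 5 lower and 2 higher, where 22.6% of all genes tested were lower and 16.5% higher. Only 2, Khdc3 and Nlrp2, passed 2-fold, as 9% of all genes did in that direction. Their ranges were also the 2 of 8 that did not overlap, as in 2.36% of all genes.

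Nlrp2, a relative of NLRP5 in the complex, had 303, 409 and 460 CPM in wild-type FGOs and 157, 191 and 260 in MII oocytes, so that all 10 MII oocytes lay below all 18 FGOs. It fell by 50.7% (log2 -1.02 ± 0.06 SE, adjusted p = 1.66e-19), and by -0.97 and -1.21 on the log2 scale within the high and the low class. Khdc3 had 30.5, 39.4 and 81.7 CPM in FGOs and 12.6, 17.6 and 26.4 in MII oocytes, again without overlap. It fell by 59.9% (log2 -1.32 ± 0.16 SE, adjusted p = 1.48e-09), with -1.01 and -1.75 within the classes.

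The remaining members changed by at most 23.5%. Tle6 had 988, 1057 and 1160 CPM in MII oocytes, 9 of 10 below the wild-type range of FGOs, and fell by 17.4% (adjusted p = 5.66e-09). Nlrp5 had 847, 992 and 1068 CPM, all below the FGO median, and fell by 18.7% (adjusted p = 0.000477). Padi6 had 1654, 1758 and 1851 CPM and fell by 12.7% (adjusted p = 0.00132). Within the high class all 7 MII oocytes lay below all 10 FGOs for each of Tle6, Nlrp5 and Padi6.

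Zbed3 went the other way. It had 4332, 4722 and 5515 CPM in MII oocytes, all 10 above the FGO median of 3751, and rose by 23.5% (log2 0.30 ± 0.06 SE, adjusted p = 0.000107). Nlrp4f had 1409, 1487 and 1664 CPM, all 10 above the FGO median of 1335, and rose by 10.7% (log2 0.15 ± 0.04 SE, adjusted p = 0.00714). Both were above the whole FGO range within the high class in 7 of 7 MII oocytes. Ooep, of the core, had 388, 465.6 and 525 CPM (log2 -0.02 ± 0.06 SE, adjusted p = 0.776), with an interval from -9.26% to 6.65%. With low-class libraries alone (3 against 8 oocytes), 3 members, Khdc3, Nlrp2 and Tle6, were called.

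Summed over the 8 genes, the level was 10623 ± 398 CPM in wild-type FGOs (SD, n = 18) and 10726 ± 380 in MII oocytes (n = 10). It was 9832 ± 622 CPM in the Dnmt3L mutant, 9457 ± 917 in the Dnmt3a mutant and 11387 ± 293 in the double mutant (n = 8 each). The double mutants, from 10959 to 11793 CPM, overlapped the wild-type range of 9963 to 11505.

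Partners of the complex, taken from a list of 6 of which 5 were in the files, went the same way in part. Nlrp14, an NLR-family gene of the oocyte, had 1598, 2136 and 3051 CPM in wild-type FGOs, 1515, 1726 and 1963 in the Dnmt3a mutant and 2422, 2642 and 3195 in the double mutant. It was called in every comparison, lower in the Dnmt3L (log2 -0.30) and Dnmt3a mutant (-0.38) and in MII oocytes (-0.65), and higher in the double mutant (0.23) and in the contrast of both mutations (0.92). Skp1a, a component of SCF ubiquitin ligases, was lower in the Dnmt3L (-0.21) and Dnmt3a mutant (-0.28), and Ube2d3, a ubiquitin-conjugating enzyme, was lower in the Dnmt3a (-0.24) and higher in the double mutant (0.21). Cfl1, which severs actin filaments, was lower in the Dnmt3a mutant (-0.16) and higher in MII oocytes (0.20). Uhrf1, a cofactor of maintenance methylation, was called in MII oocytes (0.11) and in no genotype. Of the 5, 2 were lower in the Dnmt3L mutant, 4 lower in the Dnmt3a mutant and 2 higher in the double mutant. The shares of all genes tested were 3.06%, 7.61% and 5.51% in these comparisons and directions.

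Of 14 maternal-effect genes outside the complex, 0 were called in the Dnmt3L mutant by edgeR (3, Zar1l, Npm2 and Hsf1, had an unadjusted p under 0.05), 2 were lower in the Dnmt3a mutant, and 2 were higher and 1 lower in the double mutant. Kdm1b, a histone demethylase needed for maternal imprints, was lower in the Dnmt3a mutant (log2 -0.60, adjusted p = 0.0154), and Npm2, a chaperone of oocyte chromatin, was lower there too (-0.18, adjusted p = 0.00266). Smarca4, a chromatin remodeller, was lower in the double mutant (-0.21) and higher in MII oocytes (0.14). Zar1, which binds stored mRNA, was higher in MII oocytes (0.15). In MII oocytes 4 of the 14 were higher and 3 lower, where 16.5% of all genes tested were higher and 22.6% lower. The shares of all genes in the mutants were 3.07% higher and 3.06% lower for Dnmt3L and 7.61% lower for Dnmt3a. In the double mutant they were 5.51% higher and 6.74% lower.

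In the genotypes the oocyte markers moved in the same direction as the members. Of 12, 5 were lower in the Dnmt3L mutant, 6 lower in the Dnmt3a mutant, 3 higher in the double mutant and 10 higher in the contrast of both mutations, with median log2 differences of -0.21, -0.31, 0.20 and 0.78. The shares of all genes tested were 3.06%, 7.61%, 5.51% and 19.3% in these comparisons and directions. Their summed level was 7458 to 10586 CPM in wild-type FGOs, 6500 to 8231 in the Dnmt3a mutant and 9983 to 11156 in the double mutant. Of the 12 granulosa markers, 2, 3 and 7 were lower in the Dnmt3L, Dnmt3a and double mutants and 9 in MII oocytes. Of all genes tested, 3.06%, 7.61%, 6.74% and 22.6% were lower in these comparisons. The part of either list in the differences of the members was not tested. Among relatives, Khdc1b fell in the Dnmt3a mutant (-0.19) and rose in MII oocytes (0.14), Tle4 rose in the double mutant (0.53) and fell in MII oocytes (-0.39), and Padi2, Zbed4 and Nlrp4g were called in no comparison with wild-type FGOs.

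Across all 52 libraries, the genes whose log2 CPM was most like the mean of the 8 members, among 4298 genes of at least 50 CPM, were Nlrp14 (r = 0.97), Zp2 (0.94), Zp1 (0.94), Fbxw24 (0.93) and Polr2j (0.90). Zp1 and Zp2 encode proteins of the zona pellucida, the coat of the egg. Single members had r from -0.21 to 0.91 with that mean. Zp2 had means of 1373 CPM in wild-type FGOs, 1033 in the Dnmt3L mutant, 901 in the Dnmt3a mutant, 1672 in the double mutant and 496 in MII oocytes. The points share libraries, groups and scaling.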

How the data were processed

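Single-oocyte RNA-seq libraries (SMART-Seq HT) were analysed from 52 deposited tables of raw counts, the number of reads per gene. For these counts the authors used STAR on mm10 and then featureCounts (the processing notes also name HTSeq); annotation release, strand setting and the treatment of reads with several positions are not given in the sources used here. Embryo libraries were not used here. The quasi-likelihood test of edgeR 4.0.16 (R 4.3.3) followed TMM scaling and filterByExpr with its minimum count at 10, with Benjamini-Hochberg adjustment. FGOs shared 1 fit of 42 libraries (15726 genes, biological CV 25.2%), and MII oocytes entered 1 fit of 52 (15784 genes, 23.8%). A gene was called at an adjusted p under 0.05. Each library was 1 replicate, as labelled, and the most alike within a group had a chi-square per degree of freedom of 5.39. Counting error of the members was 3.76% or less in wild-type FGOs. The test was also run on simulated counts with 1 dispersion for all genes and no difference between classes. That run cannot show how the test behaves where spread or level differs by class. Exons and 50-base stretches came from GENCODE M21, promoters from RefSeq. The members, the lists and the rule for named genes (all members and partners, the 4 maternal-effect genes called most often, the best-expressed relative of each family, the 5 most alike genes) were chosen with earlier results of these data known. DESeq2 1.42.0, edgeR's exact test, other scaling, filters and sets of libraries were alternatives.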

Additional observations from a re-analysis of the deposited data

Results flagged for a closer look

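Of 32 groups of 8 or 10 oocytes tested for a library far from the others, 5 had one, and chance alone flags about 1 in 20. Double mutant replicate 4 stood apart in 3 members, with the highest Ooep (608 CPM), Khdc3 (94.4 CPM) and Padi6 (2658 CPM) of its group. Dnmt3L mutant replicate 2 stood apart in the other 2, with the lowest Zbed3 (2884 CPM) and Nlrp4f (1038 CPM) of its group.

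By the contrast in edgeR's quasi-likelihood test, the difference in the double mutant departed from the sum of both single differences in 7 members. Class and genotype cannot be told apart there. The log2 difference was 0.64 for Nlrp5, 0.47 for Ooep, 0.19 for Tle6, 1.25 for Khdc3, 0.62 for Padi6, 0.32 for Zbed3 and 0.24 for Nlrp2. Without double mutant replicate 4, and without every other FGO in turn, 7 members were called in the same contrast. With the class as a covariate 5 were called. Over all genes tested, 19.3% were higher and 16.3% lower in this contrast.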

How the results depend on the processing

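Of 2048 values of single members under the alternatives, 1893 kept direction and side of the threshold, 99 lost and 38 gained a call, and 18 changed direction, none of them called under either setting. A minimum fold change of 2 left 0 calls in each mutant and in both comparisons between mutants, 1 in the contrast of both mutations and 2 in MII oocytes. Calls in the Dnmt3L mutant (2) became 1 with RLE size factors or the class as a covariate, and 0 with genes of at least 1 count, 2 groups only or edgeR's exact test. With low-class wild-type FGOs the 2 genes called there were Ooep and Khdc3 in place of Nlrp5 and Padi6, and in MII oocytes Ooep was called and Nlrp4f was not. Calls in the Dnmt3a mutant (3) became 5 with low-class wild-type FGOs and 0 with low-class libraries only. The call in the double mutant (1) became 4 with high-class wild-type FGOs (Ooep, Khdc3, Padi6 and Nlrp4f, without Tle6), and 0 with upper quartile scaling, genes of at least 1 count, the class as a covariate, 2 groups only or the exact test. Double against Dnmt3L mutant (5) became 1 with the class as a covariate, and MII oocytes (7) 3 with low-class libraries only. Leaving out 1 library gave 0 to 2 calls in the Dnmt3L, 2 to 5 in the Dnmt3a (2 without replicate 5 or 6, 5 without replicate 1) and 0 to 3 in the double mutant, 7 in every fit for MII oocytes and for the contrast, 5 to 6 against the Dnmt3a and 4 to 6 against the Dnmt3L mutant. DESeq2 gave the same counts in all 7 comparisons. Scaling moved the median of all genes by less than 0.1 (log2).

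Over all genes, calls in the Dnmt3L mutant (964) became 467 with genes of at least 1 count and 3344 with low-class wild-type FGOs. In the Dnmt3a mutant (2465) they became 4377 with low-class wild-type FGOs, and 137 and 1392 with low-class and high-class libraries only. In the double mutant (1926) they became 1184 with genes of at least 1 count, 217 and 5799 with low-class and high-class wild-type FGOs, 410 with the class as a covariate and 1101 with 2 groups only. The covariate left 2226 of 5601 in the contrast, 2035 of 4861 against the Dnmt3a and 186 of 3800 against the Dnmt3L mutant. Low-class libraries gave 3122 against the Dnmt3a mutant, and low-class and high-class libraries 1589 and 3790 of 6170 in MII oocytes.

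The replicate numbers did not pair the samples: 19 of 48 same-numbered pairs had a correlation over 0.1. With the number as a block, 5 members (4109 genes) were called in the Dnmt3a, 0 (227 genes) in the double and 2 (2830 genes) in the Dnmt3L mutant. The 2 were Ooep (adjusted p = 0.00189) and Khdc3 (0.0337) in place of Nlrp5 (0.109) and Padi6 (0.0712). The block gave 6, 5, 6 and 4 calls in MII oocytes, in the contrast, and against the Dnmt3a and the Dnmt3L mutant. In the FGO fit, numbers 9 to 18 occur only in wild-type FGOs, so the block sets the mutants against wild-type replicates 1 to 8. These are the low-class wild-type FGOs, which alone gave 217 genes in the double mutant. The part of the class in these shifts was not tested.

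The changes of direction were small. With low-class wild-type FGOs, log2 was 0.037 for Tle6 in the Dnmt3L, -0.035 for Nlrp4f in the Dnmt3a, and -0.011 for Ooep and -0.021 for Zbed3 in the double mutant. With high-class wild-type FGOs it was 0.0084 for Nlrp4f in the Dnmt3L mutant and 0.12 for Ooep in MII oocytes. With the class as a covariate it was -0.00043 for Ooep and -0.041 for Zbed3 in the double mutant, -0.033 for Zbed3 against the Dnmt3L mutant, and 0.015 for Ooep in MII oocytes. With the replicate block it was 0.039 for Tle6 in the Dnmt3L, -0.030 for Nlrp4f in the Dnmt3a, and -0.011 for Ooep and -0.016 for Zbed3 in the double mutant. With 1 class only it was 0.073 for Tle6 in the Dnmt3a mutant (low) and 0.038 for Ooep in MII oocytes (high). Leaving out 1 library, Nlrp4f in the Dnmt3a mutant ran from -0.0053 (without its replicate 1) to 0.049, and Ooep in MII oocytes from -0.045 to 0.0024 (without MII replicate 10).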
